A study of Mus musculus with 16 samples.

Results

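CD9+ macrophages and Ly6G+ neutrophils were compared on day 14 after anterior cruciate ligament reconstruction (ACLR), an operation in which a tendon graft is passed through tunnels drilled in the bone. The comparison rests on 4 of the 16 bulk RNA-seq libraries of the series, chosen by their labels: 2 of CD9+ macrophages and 2 of neutrophils. Both populations were flow-sorted from the interface tissue between graft and bone of male wild-type C57BL/6 mice, operated on as young adults. The labels give the neutrophil gate as live, lineage-negative, CD45+, Ly6G+ and Ly6C+, and the study's methods add CD11b+. The CD9+ gate was live, lineage-negative, CD45+, Ly6G- and CD11b+, and within it F4/80+ and CD9+. The lineage antigens, on which cells were excluded, were B220 of B cells, CD3e of T cells, NK1.1 of NK cells, Ter119 of erythroid cells, and CD34 and c-kit of progenitors. Cells carrying both CD9 and CX3CR1 fell into the CD9+ group. The other 12 libraries are both populations on day 1 and CX3CR1+ macrophages and F4/80- myeloid cells on both days. Each library pooled the cells of several mice, so replicate error here is error between pools of mice. The study pooled mice for each sort, so CD9+ and neutrophil libraries can share mice. The main fit did not pair them. The CD9+ libraries held 9426068 and 9233952 counts on genes and the neutrophil libraries held 10661077 and 12721779. Values are given as CPM, the counts of a gene per 1000000 counts of its library after scaling with TMM factors, which correct for the composition of a library. A gene was called when edgeR's quasi-likelihood test gave a Benjamini-Hochberg adjusted p under 0.05 over 11998 tested genes and the log2 fold change, always CD9+ minus neutrophils unless stated, was at least 1 in size. With 2 libraries against 2, the smallest p of an exact two-sided permutation test is 0.333, and the tests below use the spread shared over all 8 groups.

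Neutrophils are short-lived phagocytes that leave the bone marrow with granules already filled. They fill these granules in order, first azurophil granules with myeloperoxidase and serine proteases, then specific granules with lactoferrin and gelatinase granules with matrix metalloproteinases. Macrophages engulf dead cells and matrix, digest them in lysosomes, present peptides on MHC class II and secrete growth factors and complement. CD9 is a tetraspanin, a small membrane protein that organises receptors and adhesion molecules, and is carried by many cell types.

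The antigens of the sort were examined first. Ly6g, the antigen of the neutrophil gate, stood at 4.97 and 2.63 CPM in CD9+ macrophages and 266 and 285 CPM in neutrophils (log2 fold change -6.17, standard error 0.42, adjusted p = 8.4e-09). Adgre1, which encodes F4/80, stood at 144 and 216 CPM in CD9+ macrophages and 20.2 and 23.9 CPM in neutrophils (log2 fold change 3.03, standard error 0.24, adjusted p = 3.5e-08). Both genes separated the 4 libraries as the gates did. Cd9 itself ran against the name of the population. It stood at 142 and 183 CPM in CD9+ macrophages and 345 and 346 CPM in neutrophils, so both neutrophil libraries exceeded both CD9+ libraries (log2 fold change -1.09, standard error 0.13, adjusted p = 2.1e-06). CX3CR1+ macrophages, the other F4/80+ population, stood at 6.6 and 6.48 CPM, and Cd9 was higher in CD9+ than in CX3CR1+ macrophages by 4.63 on the log2 scale (adjusted p = 6.1e-11). Neutrophils were not gated on CD9. The call of Cd9 against neutrophils rests on the scaling and on a library, with a log2 fold change of -0.60 with scaling by library size only, -0.85 with upper quartile factors and -0.89 without the first CD9+ library, all short of the fold threshold and in the same direction. Itgam, which encodes CD11b, was lower in CD9+ macrophages by a log2 fold change of -2.09, and Ptprc, which encodes CD45, at -1.87. Ly6c2 was not called (log2 fold change -0.46, adjusted p = 0.058, and 0.0378 with scaling by library size only). Cx3cr1, the receptor of fractalkine, was higher in CD9+ macrophages than in neutrophils at 77.9 and 107 against 3.48 and 2.97 CPM (log2 fold change 4.84, adjusted p = 5.1e-10).

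**Figure D1:**
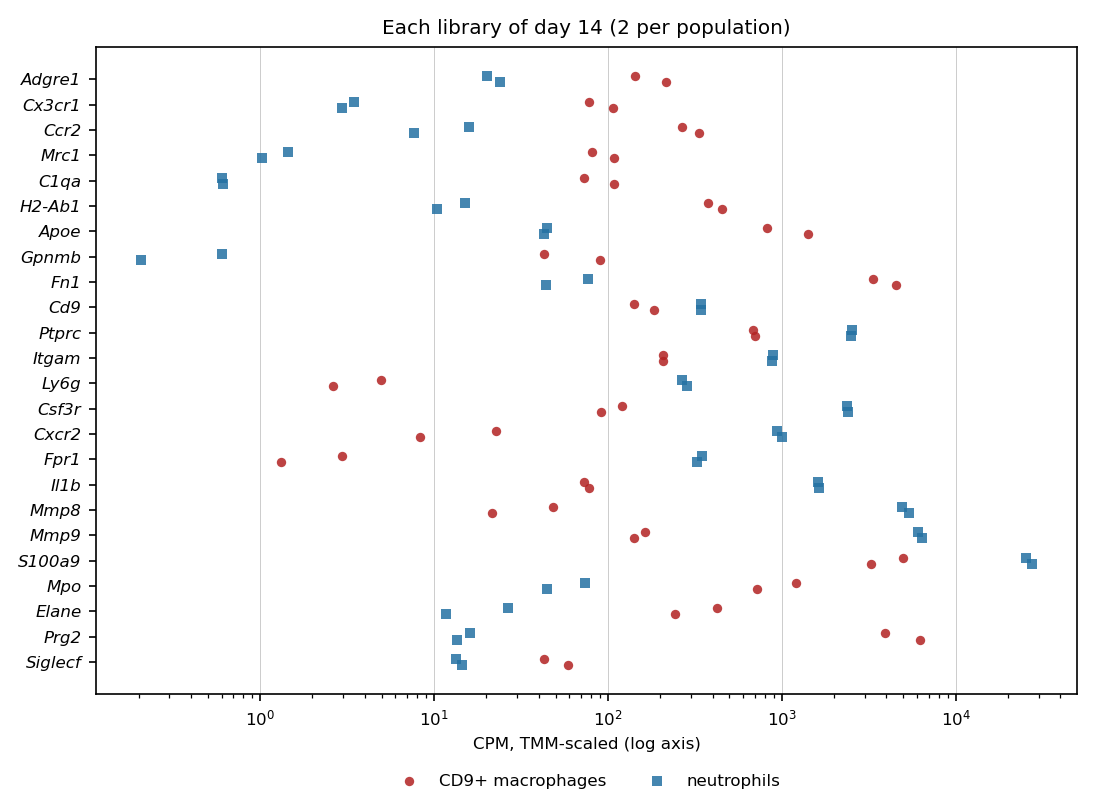
CPM of 24 genes in each of the 4 day 14 libraries, on a log axis, with circles for CD9+ macrophages and squares for neutrophils. In every row shown the libraries of the populations do not overlap, and Cd9 lies on the neutrophil side.

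The size of the difference was large. Of the 11998 tested genes, 3554 (29.6%) were called higher in CD9+ macrophages and 2386 (19.9%) were called lower, 49.5% in all. The libraries of the populations did not overlap for 10543 genes (87.9%), so a lack of overlap says little about a single gene here. Genes higher in CD9+ macrophages were many and mostly of low abundance. Their median CPM in CD9+ macrophages was 14.6 and together they held 24.3% of the CPM there. Genes higher in neutrophils were fewer and more abundant, with a median of 98.7 CPM in neutrophils and 57.2% of their CPM. A fitted difference of at least 32-fold was found for 505 genes on the CD9+ side and 92 on the neutrophil side. These counts include genes with few or no counts in the lower population, for which a fitted fold is uncertain. Of the genes higher in CD9+ macrophages, 551 held 3 counts or fewer in each neutrophil library, the limit taken for what this depth shows. The same held in CD9+ macrophages for 76 of the genes higher in neutrophils.

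The split between directions depends on the scaling. TMM factors were 1.11 and 1.07 in the CD9+ libraries and 0.781 and 0.766 in the neutrophil libraries. Scaling by library size only moved the median over all tested genes up by 0.493, and gave 4722 genes higher and 1320 lower. With upper quartile factors it moved up by 0.233, with 4056 higher and 1808 lower. With RLE factors it moved by -0.0639, with 3429 higher and 2555 lower. No gene that was called under TMM and under any of these 3 scalings changed sign. Of the genes named here as lower, Cd9, Sgms2, Spi1, Fcgr3, Camp, Cxcl2, Ccl6, Cfp, Tfeb, Tfe3, Itgb3, Alox5ap, Mcl1 and Lyve1 missed the call with scaling by library size only, in the same direction. Where one of these 3 scalings evened out or turned the balance of called genes in a list below, its counts stand with that list. Counts of called genes in every list are to be read beside the 29.6% higher and 19.9% lower of all tested genes. A list near these shares does not stand out from all genes.

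**Figure D2:**
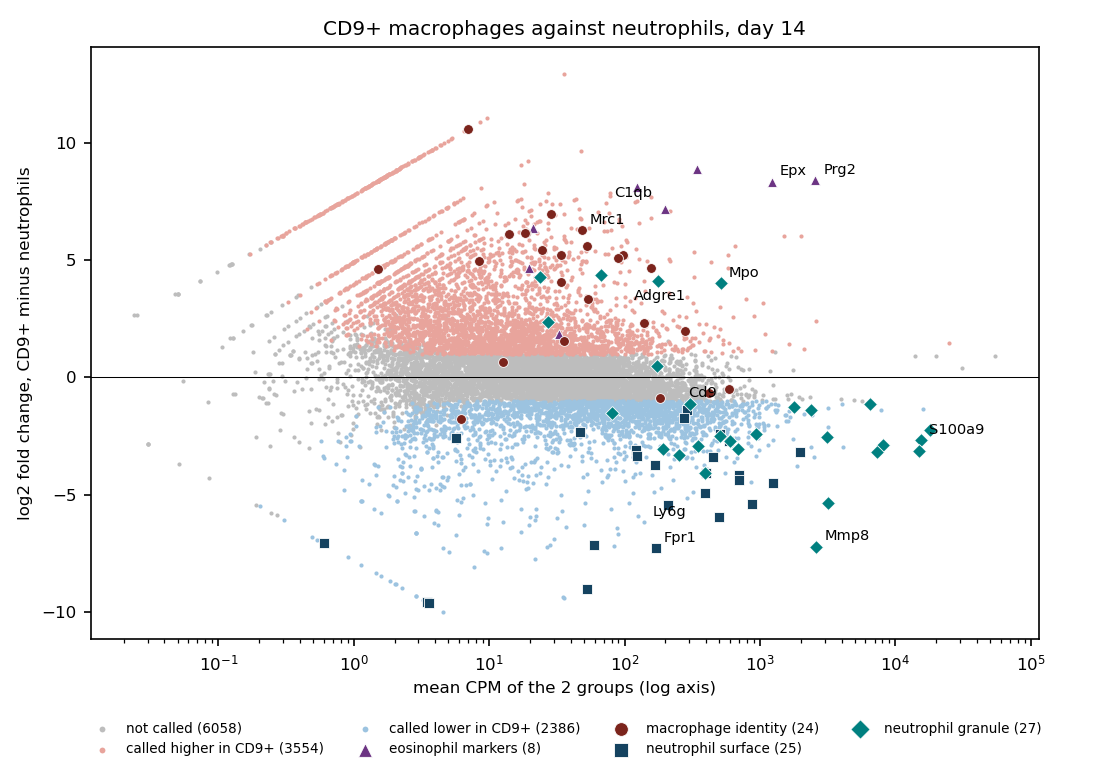
Mean CPM of the 2 populations on day 14 (log axis) against the log2 fold change, CD9+ minus neutrophils, for the 11998 tested genes, with the members of 4 gene lists marked. Most eosinophil markers lie at the top together with macrophage identity genes, neutrophil surface genes lie at the bottom, and 5 granule genes, Mpo among them, lie far above the others.

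Markers of other lineages were summed in each library, both of types that the lineage gate removes and of types that it does not name, such as eosinophils and basophils. Fewer cells of a type and less RNA per cell cannot be told apart in bulk RNA. The 17 neutrophil markers summed to 22713 and 15248 CPM in CD9+ macrophages, 130443 and 138026 CPM in neutrophils, and 620 and 786 CPM in CX3CR1+ macrophages of day 14. The 14 macrophage markers summed to 2363 and 3754 CPM in CD9+ macrophages and 251 and 245 CPM in neutrophils. The 8 eosinophil markers summed to 6841 and 11083 CPM in CD9+ macrophages, against 46.7 and 40.5 CPM in neutrophils. In the other 12 libraries they were next highest in CD9+ macrophages of day 1, at 595 and 642 CPM, and at most 121 CPM in the rest. The CD9+ libraries of day 14 therefore held more eosinophil marker RNA than any other library of the series. Basophil and mast cell markers summed to 342 and 268 CPM in CD9+ macrophages and 7.92 and 4.92 CPM in neutrophils, with up to 1891 CPM in other libraries. B cell and plasma cell markers summed to 1768 and 1612 CPM against 152 and 159 CPM, and progenitor markers to 1379 and 847 CPM against 173 and 149 CPM. In F4/80- myeloid cells of day 14 progenitor markers summed to 2214 and 2238 CPM. Platelet markers summed to 96.3 and 98.1 CPM against at most 11.2 CPM. T cell, NK cell, erythroid, fibroblast, dendritic and endothelial markers each summed to at most 51.3 CPM in all 4 libraries. Of 7 B cell and plasma cell markers 3 held no more than 3 counts in either neutrophil library, and of 8 eosinophil markers none did. Of the tested markers 4 of 6 dendritic, 4 of 7 progenitor, 2 of 3 platelet and 2 of 2 endothelial genes were called higher in CD9+ macrophages, none of 4 erythroid or 3 fibroblast genes was called, and the 1 tested T cell gene was lower. The sums of eosinophil, basophil, plasma cell, progenitor and neutrophil markers moved with the population, and their part in the results below was not tested.

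**Figure D3:**
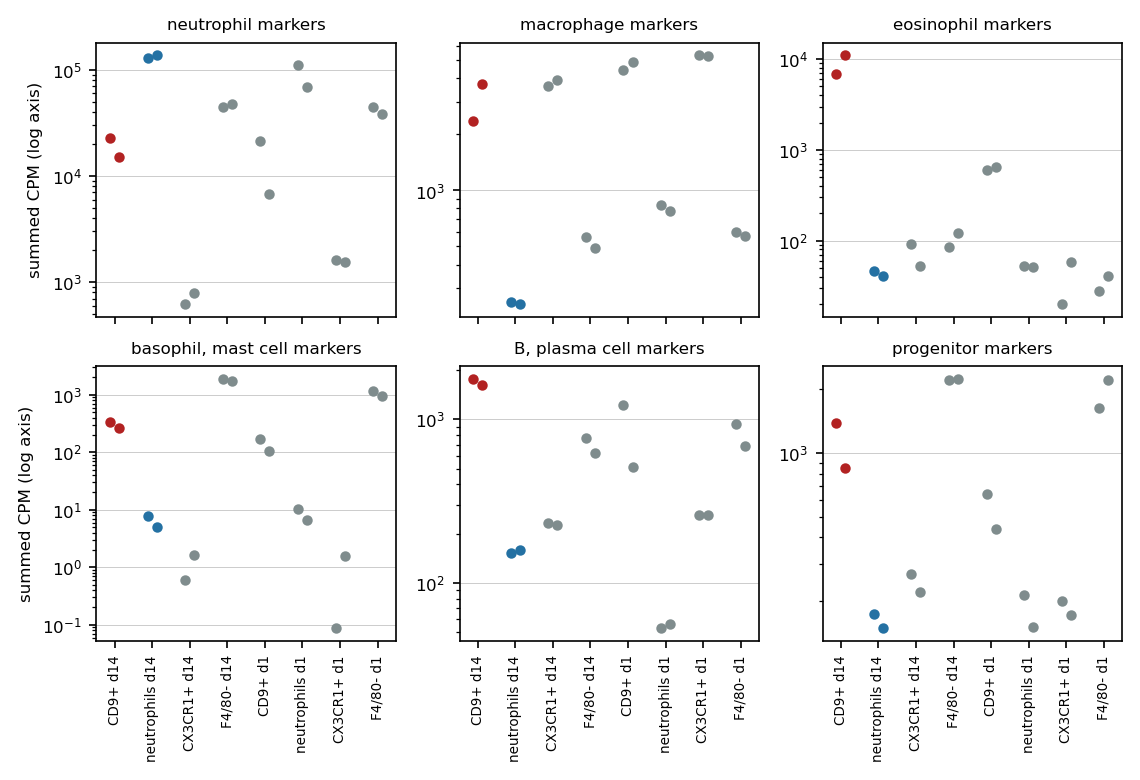
Summed CPM (log axis) of 6 marker lists in each of the 16 libraries, 2 points per group, with CD9+ macrophages of day 14 in red and neutrophils of day 14 in blue. Eosinophil markers reach 6841 and 11083 CPM in the red libraries and at most 642 CPM elsewhere, in CD9+ macrophages of day 1.

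In the list of receptors and surface proteins of neutrophils, 25 of 25 tested genes were lower in CD9+ macrophages and none was higher. The list also holds Slfn4 and Tnfaip6, which do not encode surface proteins. Its median log2 fold change was -4.14 (-4.06 with genes at the floor set to their bound) against 0.12 over all tested genes. Fpr1, a receptor of bacterial formyl peptides, stood at 2.97 and 1.31 CPM in CD9+ macrophages and 348 and 324 CPM in neutrophils (log2 fold change -7.28, standard error 0.30, adjusted p = 1.6e-10). Fpr2, its close relative, stood at 11.3 and 7.78 against 391 and 427 CPM (log2 fold change -5.42, adjusted p = 1.6e-10). Cxcr2, the receptor of neutrophil-attracting CXC chemokines, stood at 22.8 and 8.29 against 937 and 1005 CPM (log2 fold change -5.96, adjusted p = 3.2e-08). All 3 receptors were far lower in the CD9+ libraries than in the neutrophil libraries, with the first CD9+ library above the second. Csf3r, the receptor of G-CSF, stood at 120.3 and 91.0 against 2364 and 2395 CPM (log2 fold change -4.49, adjusted p = 1.5e-10). Mgam, a maltase, and Clec5a, a lectin receptor of myeloid cells, had log2 fold changes of -3.73 and -1.72. Sgms2, a sphingomyelin synthase that is not one of the 25, stood at 120.0 and 102 against 289 and 279 CPM (log2 fold change -1.35, adjusted p = 1.3e-06). Il1r2, the decoy receptor of interleukin-1, was lower at a log2 fold change of -4.91 and Trem1, an amplifier of inflammatory signalling, at -4.38. The gene that differed least among the 25 was Fcgr3, an Fc receptor that macrophages carry too (log2 fold change -1.40, adjusted p = 8.9e-08). Stfa2l1, a cystatin of the stefin A cluster, stood at 0.383 and 0 CPM in CD9+ macrophages and 99.8 and 111 CPM in neutrophils. Its neighbours Gm5483, Stfa2 and BC100530 were higher in neutrophils at least 242, 24.2 and 23.4-fold against a floor of 3 counts per library. Genes of this cluster are near-identical copies, so their counts are uncertain one by one.

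The 10 genes with the lowest log2 fold changes among those at 50 CPM or more were Gm5483, Gpr27, Stfa2l1, Fpr1, Sycp2, Mmp8, H2-Q10, Ceacam10, Gm39321 and Ifit1bl2. Gpr27, an orphan receptor, was higher in neutrophils at least 238-fold, from 0.0957 and 0.101 to 74.9 and 65.6 CPM. H2-Q10, a non-classical MHC class I gene, stood at 1.24 and 1.01 against 163 and 169.5 CPM (log2 fold change -7.19, adjusted p = 2.4e-09). Sycp2, which encodes a protein of the meiotic synaptonemal complex, stood at 0.191 and 0.505 against 58.9 and 46.4 CPM (log2 fold change -7.22, adjusted p = 1.1e-07). Ifit1bl2, of an interferon-induced family, stood at 0.67 and 0.303 against 56.9 and 62.1 CPM, and the non-coding Gm39321 at 0.287 and 0.505 against 52.0 and 59.9 CPM. All 10 were present in neutrophils of day 1 as well, with Gpr27 the lowest of them at 29.0 and 23.8 CPM.

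Granule and cytosolic antimicrobial proteins divided into opposite groups. Of 27 tested, 21 were lower in CD9+ macrophages, 5 were higher and Cd63 was not called. The 5 that were higher are genes of the first, azurophil granules and of the progenitors that make them. Mpo, myeloperoxidase, stood at 1214 and 719 CPM in CD9+ macrophages and 73.9 and 44.4 CPM in neutrophils (log2 fold change 4.03, standard error 0.39, adjusted p = 3.6e-07). Elane, neutrophil elastase, stood at 426 and 243 against 26.8 and 11.8 CPM (log2 fold change 4.13, adjusted p = 9.8e-07), Prtn3, proteinase 3, at 157 and 99.2 against 8.52 and 4.21 CPM (log2 fold change 4.35, adjusted p = 8.2e-08) and Ctsg, cathepsin G, at 52.9 and 37.6 against 3.72 and 1.03 CPM (log2 fold change 4.29, adjusted p = 6.2e-07). Ms4a3, a marker of granulocyte and monocyte progenitors, stood at 58.4 and 32.1 against 10.3 and 7.18 CPM (log2 fold change 2.38, adjusted p = 3.0e-04). All 5 were higher in the first CD9+ library than in the second. Both CD9+ libraries still exceeded both neutrophil libraries for each of them.

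Genes of later granules were lower. Ltf, lactoferrin of specific granules, stood at 3747 and 2310.4 CPM in CD9+ macrophages and 26171 and 27083 CPM in neutrophils (log2 fold change -3.14, standard error 0.54, adjusted p = 1.1e-04). Lcn2, lipocalin 2, was lower at a log2 fold change of -3.16, Camp, the cathelicidin, at -1.39 and Ngp at -2.24. Mmp9, gelatinase B, stood at 164 and 142 against 6055 and 6409 CPM (log2 fold change -5.35, adjusted p = 4.4e-07) and Mmp8, neutrophil collagenase, at 48.2 and 21.6 against 4902 and 5428 CPM (log2 fold change -7.21, adjusted p = 5.4e-10). S100a8 and S100a9, the subunits of the cytosolic calprotectin, were lower at log2 fold changes of -2.88 and -2.68. The share of the neutrophil level that CD9+ macrophages held was thus not one ratio. Over the 17 neutrophil markers it ran from 0.181% for Stfa2l1, 0.676% for Mmp8 and 1.38% for Ly6g through 11.4% for Ltf and 15.6% for S100a9 to 38.2% for Camp and 61.9% for Cebpe, with a median of 7.52%. Cebpe, the factor of late granulocyte development, was not called (log2 fold change -0.69, adjusted p = 0.036). In neutrophils the 14 macrophage markers ran from 0.603% of the CD9+ level for C1qb to 25.3% for Csf1r.

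Per kilobase of exon, which allows levels of different genes to be compared, S100a9 was the highest nuclear protein-coding gene in both populations. It stood at 7929 CPM per kb in CD9+ macrophages and 50710 CPM per kb in neutrophils. Prg2, the major basic protein of eosinophils, came second in CD9+ macrophages at 6044 CPM per kb and stood at 17.8 CPM per kb in neutrophils. Ngp was next at 5105 CPM per kb. In neutrophils Ngp and S100a8 followed it.

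Promoters of granule genes are shown because this list divided between the populations. Each stretch is the 250 bases before the start in the RefSeq table of GRCm38.p6, with capitals for GAGGAA, the core letters bound by PU.1, or TTGCNNAA, letters of C/EBP sites, read on both strands. The first 2 genes were higher in CD9+ macrophages and the last 3 were lower.
Elane (chr10:79886062-79886311, plus strand): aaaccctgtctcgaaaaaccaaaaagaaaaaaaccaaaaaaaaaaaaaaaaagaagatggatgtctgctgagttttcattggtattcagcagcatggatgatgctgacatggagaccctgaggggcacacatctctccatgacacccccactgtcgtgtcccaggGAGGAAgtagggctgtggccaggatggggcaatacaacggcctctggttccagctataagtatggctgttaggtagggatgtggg
Prtn3 (chr10:79879417-79879666, plus strand): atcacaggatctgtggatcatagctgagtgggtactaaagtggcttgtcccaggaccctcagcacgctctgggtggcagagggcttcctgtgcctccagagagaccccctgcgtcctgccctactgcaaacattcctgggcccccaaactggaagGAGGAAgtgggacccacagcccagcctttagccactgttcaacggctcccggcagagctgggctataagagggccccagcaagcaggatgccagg
Ltf (chr9:111019042-111019291, plus strand): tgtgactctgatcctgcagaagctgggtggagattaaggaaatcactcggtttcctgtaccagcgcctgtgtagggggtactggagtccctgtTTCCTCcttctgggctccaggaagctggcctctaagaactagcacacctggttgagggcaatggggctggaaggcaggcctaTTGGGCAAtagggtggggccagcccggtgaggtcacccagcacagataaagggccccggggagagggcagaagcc
Ngp (chr9:110419558-110419807, plus strand): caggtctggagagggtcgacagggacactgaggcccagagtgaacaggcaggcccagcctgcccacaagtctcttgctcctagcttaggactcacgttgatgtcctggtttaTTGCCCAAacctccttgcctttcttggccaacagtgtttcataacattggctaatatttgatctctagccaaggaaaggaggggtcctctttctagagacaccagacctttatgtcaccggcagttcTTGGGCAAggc
Mmp8 (chr9:7558179-7558428, plus strand): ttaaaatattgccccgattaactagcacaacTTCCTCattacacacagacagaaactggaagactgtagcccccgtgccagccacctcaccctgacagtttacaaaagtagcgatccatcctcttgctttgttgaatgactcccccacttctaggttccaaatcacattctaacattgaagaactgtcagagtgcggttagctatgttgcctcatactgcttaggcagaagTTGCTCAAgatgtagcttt
TTGCNNAA was found in 7 of the 17 granule genes with a promoter in the table that were lower in CD9+ macrophages (41.2%) and in 0 of the 5 that were higher, against 9.56% of the 32851 promoters in the table. GAGGAA was found in 9 of the 17 (52.9%) and in 4 of the 5 (80%), against 23.3% of all promoters. A listed gene was counted where any of its promoters held the letters, while the share of all promoters counts each promoter singly. The shares are therefore of unlike units. These matches describe letters in this window and were not tested.

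Genes of the oxidative burst and of interleukin-1 signalling were higher in neutrophils. Of 8 genes of the phagocyte NADPH oxidase, 5 were lower in CD9+ macrophages and none was higher. Cybb, the catalytic subunit, stood at 1274 and 1150.4 against 3532 and 3784 CPM (log2 fold change -1.59, adjusted p = 7.9e-06), and Ncf1 and Ncf4, cytosolic partners of it, had log2 fold changes of -1.70 and -1.68. With scaling by library size only these values moved up with all genes, and all 5 stayed lower. Of 12 genes of the interleukin-1 family and its receptors, 8 were lower and 1 was higher, with a median of -2.42. Il1b stood at 72.8 and 78.3 CPM in CD9+ macrophages and 1618 and 1648 CPM in neutrophils (log2 fold change -4.43, standard error 0.20, adjusted p = 4.0e-10). The 2 libraries of each population lay close together and the populations far apart. Il1f9, which encodes IL-36 gamma, was lower at a log2 fold change of -5.90 and Il1rn, the receptor antagonist, at -2.37. The 1 gene that was higher was Il1rl1, the IL-33 receptor, at 17.7 and 19.9 against 7.92 and 8.31 CPM (log2 fold change 1.21, adjusted p = 0.0069). Of the 12 inflammasome genes, Nlrp3, Txnip and Gsdme were lower, with log2 fold changes of -2.40, -1.64 and -3.62, and Nlrc4 was higher at a log2 fold change of 2.49. This list changed its balance with scaling by library size only, to 5 higher and 3 lower.

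Pattern recognition receptors were divided. Of 17 Toll-like receptor and related genes, 7 were lower in CD9+ macrophages and 4 were higher, against 19.9% and 29.6% of all tested genes. Under library sizes alone 5 were lower and 5 higher. Tlr5, the flagellin receptor, stood at 3.16 and 2.22 against 48.5 and 54.9 CPM (log2 fold change -4.26, adjusted p = 9.3e-10), and Tlr2 was lower at a log2 fold change of -1.56. Tlr9, an endosomal receptor of DNA, was higher at 17.9 and 20.3 against 1.8 and 1.44 CPM (log2 fold change 3.56, adjusted p = 9.8e-08). Of 17 C-type lectin receptors, 8 were higher and 6 were lower, with a median of -0.25 that became 0.25 under library sizes alone. Mrc1, the mannose receptor, and Mgl2 were higher at log2 fold changes of 6.27 and 5.63, while Clec4d and Clec4e, receptors of mycobacterial glycolipids, were lower at log2 fold changes of -2.90 and -2.42. Among the 5 Fc gamma receptor genes, Fcgr1 and Fcgr2b were higher at log2 fold changes of 6.16 and 1.46 and Fcgr3, Fcgr4 and the shared signalling chain Fcer1g were lower, of which 2 passed under library sizes alone. Of 10 interferon-stimulated genes that the study combined into a score, Mx1 and Cxcl10 were higher at log2 fold changes of 4.59 and 1.62 and Cmpk2, Oasl1 and Rsad2 were lower at log2 fold changes of -1.83, -1.98 and -2.61. Under library sizes alone 3 were higher and 3 lower. Without the second CD9+ library 1 was higher and 5 were lower, and Cxcl10 missed the call there (adjusted p = 0.11) and without the second neutrophil library (adjusted p = 0.081).

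Macrophage identity genes were higher in CD9+ macrophages. Of 24 tested, 19 were higher and 1 was lower, with a median log2 fold change of 4.82. Mrc1 stood at 80.9 and 109 CPM in CD9+ macrophages and 1.44 and 1.03 CPM in neutrophils (log2 fold change 6.27, standard error 0.45, adjusted p = 1.5e-08). Ccr2, the chemokine receptor of monocytes, stood at 266 and 333 CPM in CD9+ macrophages (log2 fold change 4.68, adjusted p = 2.0e-09). Csf1r, the receptor that macrophages need to survive, was less far apart at 373 and 518 against 113 and 113 CPM (log2 fold change 1.98, adjusted p = 4.2e-07). Cd68 and Metrnl were higher at log2 fold changes of 2.34 and 1.57, and F10, coagulation factor X, at 3.35. Folr2 was not found in either neutrophil library and was at least 42.0-fold higher in CD9+ macrophages. The gene that was lower was Lyve1, at 3.06 and 2.53 against 8.76 and 10.3 CPM (log2 fold change -1.76, adjusted p = 0.011), a call lost without the second CD9+ library (adjusted p = 0.069) or the second neutrophil library (adjusted p = 0.056). Emilin2, Sirpa and Cd14 were not called and had log2 fold changes of -0.67, -0.51 and -0.88, with Cd14 at -1.08 and called lower without the second CD9+ library, and Cd86 was not called at 0.68. Spi1, the factor PU.1 shared by both lineages, was lower at 269 and 261 against 680.5 and 682 CPM (log2 fold change -1.36, adjusted p = 3.5e-08), and its log2 fold change was -0.87 with scaling by library size only. For Mrc1, Ccr2 and Csf1r the second CD9+ library was higher than the first, the opposite of Mpo and Elane.

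Lipid handling and antigen presentation followed. Of 21 genes of lipid-laden, Trem2-type macrophages, 14 were higher and Tyrobp, the signalling partner of Trem2 that neutrophils also use, was lower at a log2 fold change of -1.74. Apoe, apolipoprotein E, stood at 826 and 1407 CPM in CD9+ macrophages and 44.8 and 42.9 CPM in neutrophils (log2 fold change 4.67, standard error 0.24, adjusted p = 9.3e-10). Gpnmb stood at 42.7 and 89.9 against 0.6 and 0.205 CPM (log2 fold change 7.38, adjusted p = 1.3e-08), Trem2 at 25.3 and 53.9 against 0.48 and 1.74 CPM (log2 fold change 5.09, adjusted p = 2.0e-07) and Lpl, lipoprotein lipase, at 142 and 260.5 against 4.32 and 2.67 CPM (log2 fold change 5.86, adjusted p = 2.5e-09). Cd36, a scavenger receptor, was higher at a log2 fold change of 6.24. Of 10 genes of MHC class II presentation, 9 were higher and none was lower. H2-Ab1 stood at 379 and 452 against 15.0 and 10.4 CPM (log2 fold change 5.04, adjusted p = 1.6e-10), Cd74, the invariant chain, at 768 and 911 against 29.2 and 26.5 CPM (log2 fold change 4.92, adjusted p = 1.5e-10) and Ciita, the master activator of the class, at 29.4 and 28.4 against 0.96 and 0.308 CPM (log2 fold change 5.54, adjusted p = 1.3e-08). MHC class I genes differed less, with 6 of 19 higher, 1 lower and a median of 0.53. Over all tested genes 29.6% were higher and 19.9% lower, so the share higher was near that of all genes. Under library sizes alone 10 were higher and 0 lower. Calr, calreticulin, was higher at a log2 fold change of 2.15.

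The lysosomal genes that were higher in CD9+ macrophages included the cathepsins Ctsa, Ctsb, Ctsc, Ctsk, Ctss and Ctsz. Of 37 lysosomal genes, 15 were higher, 2 were lower and 20 were not called. Ctsk, the collagen-degrading cathepsin K of osteoclasts, stood at 129 and 122 CPM in CD9+ macrophages and 0.96 and 0.923 CPM in neutrophils (log2 fold change 7.05, standard error 1.37, adjusted p = 3.2e-04). Ctss, cathepsin S, stood at 855 and 1397 against 34.8 and 25.2 CPM (log2 fold change 5.23, adjusted p = 1.1e-09) and Lgmn, legumain, at 154 and 353 against 3.48 and 1.95 CPM (log2 fold change 6.56, adjusted p = 5.2e-09). Atp6v0d2, the osteoclast form of a proton pump subunit, was higher at a log2 fold change of 6.89, whereas its widespread form Atp6v0d1 was not called (-0.72). Tfeb and Tfe3, factors that switch on lysosomal genes, were lower at log2 fold changes of -1.24 and -1.43, and Mitf of the same family was higher at a log2 fold change of 1.72. Of 12 osteoclast genes, 6 were higher, Ctsk and Atp6v0d2 among them. Acp5, the phosphatase TRAP, stood at 87.2 and 103 against 0.24 and 1.44 CPM (log2 fold change 6.75, adjusted p = 2.9e-08), and Dcstamp and Ocstamp, the fusion proteins of osteoclasts, stood at 2.49 and 4.85 and 2.77 and 5.56 CPM in CD9+ macrophages and at 0 in both neutrophil libraries. Itgb3 and Mmp9 were lower at log2 fold changes of -1.38 and -5.35.

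Of 15 tested complement genes, 5 were higher and 5 were lower, and under library sizes alone 6 were higher and 4 lower, with 6 and 5 under upper quartile factors. The higher ones included the 3 chains of C1q, which starts the classical pathway, and C3ar1. C1qa stood at 72.5 and 109 CPM in CD9+ macrophages and 0.6 and 0.615 CPM in neutrophils (log2 fold change 7.20, standard error 0.71, adjusted p = 4.2e-07). C3ar1, the receptor of C3a, stood at 159 and 316 against 1.2 and 1.44 CPM (log2 fold change 7.48, adjusted p = 6.4e-09). C5ar1, the receptor of C5a that draws neutrophils, stood at 49.1 and 48.3 against 392 and 424 CPM (log2 fold change -3.07, adjusted p = 8.9e-10), and C5ar2, Cfp, Cd55 and Cd46 were lower at log2 fold changes of -2.98, -1.45, -2.81 and -1.84.

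Of 10 CC chemokines, 7 were higher in CD9+ macrophages and Ccl6 was lower. The median log2 fold change was 4.74, or 2.57 with genes at the floor set to their bound. With a filter on the mean CPM over all 16 libraries, 6 were tested, with 3 higher and 1 lower. Ccl2, which draws monocytes, stood at 63.7 and 87.9 CPM in CD9+ macrophages and 2.28 and 1.44 CPM in neutrophils (log2 fold change 5.36, standard error 0.29, adjusted p = 1.3e-09) and Ccl9 at 187 and 229 against 9.96 and 7.79 CPM (log2 fold change 4.56, adjusted p = 1.6e-10). Ccl3 was not called (log2 fold change 0.76, adjusted p = 0.013) and was called higher with scaling by library size only. Of 6 CC and CX3C receptors, 4 were higher and Ccr1 was lower, at 82.4 and 86.6 against 662 and 640.2 CPM (log2 fold change -2.95, adjusted p = 8.4e-10). Of 15 CXC genes, 8 were higher and 4 were lower, and without the second neutrophil library 5 were higher. Cxcl16 stood at 51.2 and 90.1 against 0.36 and 0.718 CPM (log2 fold change 6.98, adjusted p = 1.7e-09), and Cxcl2, a ligand of Cxcr2, was lower (log2 fold change -1.31, adjusted p = 0.0021, and -0.92 without the first CD9+ library).

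Matrix and repair genes included some of the largest differences. Of 25 matrix genes, 11 were higher in CD9+ macrophages and 8 were lower. Fn1, fibronectin, stood at 3342 and 4568 CPM in CD9+ macrophages and 77.1 and 44.0 CPM in neutrophils (log2 fold change 6.03, standard error 0.28, adjusted p = 5.1e-10). Spp1, osteopontin, stood at 285 and 497 against 31.3 and 32.9 CPM (log2 fold change 3.60, adjusted p = 1.0e-08). Among the metalloproteinases Mmp12, Mmp14 and Mmp19 were higher at log2 fold changes of 7.53, 6.38 and 5.98, while Mmp8, Mmp9 and Mmp25 were lower. Thbs1, thrombospondin 1, stood at 877 and 968 against 7597 and 6876 CPM (log2 fold change -2.97, adjusted p = 2.3e-07). Timp1 stood at 1.63 and 1.82 CPM in CD9+ macrophages and at 0 in both neutrophil libraries, at least 5.16-fold higher. Of 15 repair growth factors, 9 were higher and Osm and Inhba were lower, at -2.86 and -2.59. With a filter on the mean CPM over all 16 libraries, 10 were tested, with 4 higher and 2 lower. DESeq2 called 7 of the 15 higher and 2 lower. Igf1 stood at 27.6 and 42.0 against 1.2 and 0.513 CPM (log2 fold change 5.36, adjusted p = 2.4e-06) and Pdgfb at 18.8 and 24.8 against 0.36 and 0.718 CPM (log2 fold change 5.29, adjusted p = 1.6e-06). Vegfa was not called (log2 fold change -0.82, adjusted p = 0.0019).

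Arg1, the cytosolic arginase, was at least 116-fold higher in CD9+ macrophages, from 0.12 and 0 to 33.4 and 43.9 CPM. Arg2, the mitochondrial arginase, stood at 0.957 and 1.62 against 103 and 95.9 CPM (log2 fold change -6.27, adjusted p = 1.0e-09). The groups lay on opposite sides for the 2 genes. Acod1, which makes itaconate, was lower at a log2 fold change of -2.94. In all, 6 of 10 genes of this list were higher and 2 were lower. Of 16 eicosanoid genes, 6 were higher and 5 were lower, and the median of -0.24 became 0.25 under library sizes alone. Alox15, the 12/15-lipoxygenase of eosinophils and some macrophages, stood at 367 and 496 CPM in CD9+ macrophages and 2.52 and 3.69 CPM in neutrophils (log2 fold change 7.10, standard error 0.28, adjusted p = 1.6e-10). Hpgds, a prostaglandin D2 synthase, was higher at a log2 fold change of 4.49. Ptgs2, which encodes COX-2, stood at 45.2 and 57.5 against 775 and 753 CPM (log2 fold change -3.89, adjusted p = 1.8e-08), and Alox5 and its partner Alox5ap were lower at log2 fold changes of -2.10 and -1.45.

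Transcription factors of the myeloid lineages showed 12 of 28 higher and 7 lower. Irf8, needed for monocytes and held down in neutrophils, stood at 148 and 132 CPM in CD9+ macrophages and 4.92 and 2.46 CPM in neutrophils (log2 fold change 5.26, standard error 0.23, adjusted p = 2.6e-10). Klf4, a monocyte factor, stood at 429 and 411 against 18.5 and 8.51 CPM (log2 fold change 4.97, adjusted p = 9.1e-10), and Maf and Zeb2 were higher at log2 fold changes of 4.08 and 2.84. Cebpd was lower at a log2 fold change of -2.17, and Cebpa was higher at a log2 fold change of 1.69. Immediate early genes did not move together, with Jun higher at a log2 fold change of 1.47 and Junb, Egr1 and Nr4a1 lower at log2 fold changes of -1.58, -1.89 and -1.67.

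Housekeeping programmes differed too. Of 76 cytosolic ribosomal protein genes, 62 were higher in CD9+ macrophages and none was lower, with a median of 1.60. Rpl3 stood at 361 and 322 against 52.7 and 48.8 CPM (log2 fold change 2.75, adjusted p = 1.5e-09). Of 30 cell cycle genes, 26 were higher and none was lower. Mki67 stood at 2833 and 1984 CPM in CD9+ macrophages and 941 and 831 CPM in neutrophils (log2 fold change 1.44, standard error 0.21, adjusted p = 2.6e-05) and the replication helicase subunit Mcm6 at 262 and 213 against 32.2 and 21.3 CPM (log2 fold change 3.15, adjusted p = 1.8e-08). The first CD9+ library was the higher one for both, as for Mpo. Of 8 tested protein-coding genes of the mitochondrial genome, 8 were higher, with log2 fold changes from 2.28 to 3.33, and mt-Co1 stood at 4176 and 4525 against 815 and 832 CPM (log2 fold change 2.40, adjusted p = 1.6e-06). The mitochondrial genome took 11.3% and 12.3% of the counts in CD9+ macrophages and 3.88% and 4.32% in neutrophils. Most of this share lay in the ribosomal RNAs mt-Rnr1 and mt-Rnr2, not in the protein-coding genes. Both fell short of the fold threshold, with log2 fold changes of 0.92 and 0.94. mt-Rnr2 alone stood at 67645 and 76209 CPM in CD9+ macrophages and 35162 and 40057 CPM in neutrophils. Nuclear genes of the respiratory chain did not move as far, with 7 of 75 higher, none lower and a median of 0.46. With scaling by library size only 34 of them were higher, and without the second neutrophil library 13 were.

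Of 12 glycogen genes, 7 were lower in CD9+ macrophages, led by Pygl, the liver form of glycogen phosphorylase, at 361 and 317 against 2106 and 2199 CPM (log2 fold change -2.67, adjusted p = 8.7e-10), and Pygb, its brain form, was higher at a log2 fold change of 2.25. Under library sizes alone 2 glycogen genes were lower and 2 higher. Of 22 glycolysis genes, 7 were lower and 3 were higher, against 19.9% and 29.6% of all tested genes. But 4 were lower and 4 higher under library sizes alone and also under upper quartile factors. Slc2a3, a glucose transporter, stood at 177 and 154 against 1758 and 1645 CPM (log2 fold change -3.36, adjusted p = 6.9e-09) and Slc16a3, which exports lactate, was lower at a log2 fold change of -3.10. Of 26 genes of cholesterol and fatty acid synthesis, 8 were lower and 6 were higher, against 19.9% and 29.6% of all tested genes. The higher ones included Fasn, fatty acid synthase (log2 fold change 3.17). This balance turned under library sizes alone to 9 higher and 5 lower, and to 6 higher and 5 lower with upper quartile factors. Of 17 heme and iron genes, 7 were higher and 5 were lower, against 29.6% and 19.9% of all tested genes. Hmox1, heme oxygenase 1, was higher at a log2 fold change of 1.23 and Slc40a1, the iron exporter ferroportin, was lower at a log2 fold change of -2.96. In the BCL2 family 4 of 16 genes were higher and 1 was lower, against 29.6% and 19.9% of all tested genes, with a median of 0.0015. The family thus did not stand out from all genes. Bcl2 was higher at a log2 fold change of 1.82, and Mcl1, on which neutrophils depend to survive, was lower at -1.46.

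Of 18 tested adhesion genes, 9 were higher in CD9+ macrophages and 8 were lower. Itgb1, Itga5 and Itgb5, subunits of receptors of matrix, were higher at log2 fold changes of 2.17, 3.33 and 5.04. Itgb2, Itgal and Itgam, the leukocyte integrins, were lower at log2 fold changes of -1.57, -1.52 and -2.09, as was Itgb3, a subunit of the vitronectin receptor, at -1.38. Cd9 was among 5 tetraspanins that were lower, next to Cd53, Cd37, Cd82 and Tspan13. Of the 14 tested, 3 were higher, of which Tspan31 had a log2 fold change of 3.46. Over all tested genes 29.6% were higher and 19.9% lower.

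**Figure D4:**
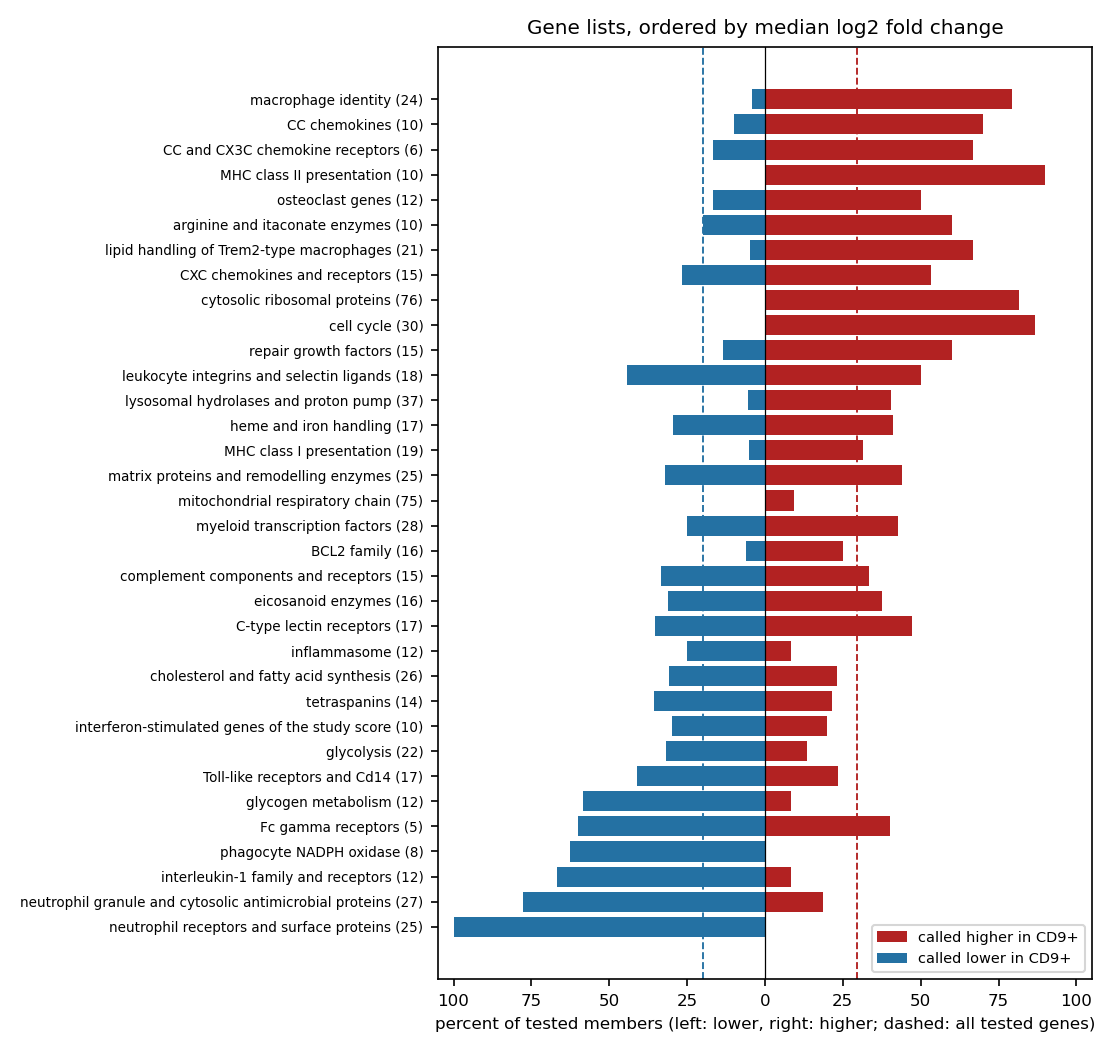
Percent of the tested members of 34 gene lists that were called higher (right) or lower (left) in CD9+ macrophages on day 14, with the number tested in brackets and dashed lines at the 29.6% and 19.9% of all tested genes. Lists are ordered by their median log2 fold change, with neutrophil receptors (25 of 25 lower) at one end and macrophage identity (19 of 24 higher) at the other.

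Genes of eosinophils stood among the largest differences. Of the 10 highest log2 fold changes among genes at 50 CPM or more, 4 fell to Ear6, Prg2, Epx and Prg3, genes of eosinophil granules. Prg2 stood at 3913 and 6216 CPM in CD9+ macrophages and 16.2 and 13.6 CPM in neutrophils (log2 fold change 8.41, standard error 0.66, adjusted p = 3.8e-08). Epx, eosinophil peroxidase, stood at 1809.9 and 3056 against 8.76 and 6.26 CPM (log2 fold change 8.35, adjusted p = 6.0e-08), Ear6, an eosinophil-associated ribonuclease, at 527 and 849 against 1.92 and 1.03 CPM (log2 fold change 8.89, adjusted p = 1.3e-08) and Prg3 at 182 and 314 against 1.32 and 0.513 CPM (log2 fold change 8.11, adjusted p = 2.7e-09). The second CD9+ library was the higher one for all 4. All 8 eosinophil markers were higher in CD9+ macrophages than in neutrophils and all 8 were higher than in CX3CR1+ macrophages of day 14. The surface receptors among them were less far apart, with Siglecf at 42.9 and 59.2 against 13.4 and 14.6 CPM (log2 fold change 1.86, adjusted p = 2.7e-05), Ccr3 at 39.8 and 36.5 against 1.8 and 1.23 CPM (log2 fold change 4.66, adjusted p = 1.5e-06) and Il5ra, the receptor of interleukin-5, at 35.0 and 47.9 against 0.48 and 0.513 CPM (log2 fold change 6.35, adjusted p = 5.6e-07). All 6 tested basophil and mast cell markers were higher as well, Mcpt8, a basophil protease, at 69.6 and 52.4 against 1.08 and 0 CPM (log2 fold change 6.90, adjusted p = 2.9e-08). The remaining 6 of the 10 were Ighg3, Cspg4, Rai14, Dab2, Myof and Emp1. Dab2, an endocytic adaptor, stood at 116 and 196 against 0.48 and 0.821 CPM (log2 fold change 7.86, adjusted p = 3.9e-10), Emp1 at 205 and 417 against 0.24 and 2.56 CPM (log2 fold change 7.71, adjusted p = 6.4e-09), and Myof, a membrane repair protein, at 122 and 191 against 0.96 and 0.513 CPM (log2 fold change 7.74, adjusted p = 5.9e-10). Cspg4, the proteoglycan NG2, was at least 285-fold higher at 78.1 and 113 CPM, and Rai14 at least 162-fold. Ighg3, an immunoglobulin constant region, stood at 103 and 39.3 CPM in CD9+ macrophages and at 0 in both neutrophil libraries, at least 213-fold higher, a call that DESeq2 did not make (adjusted p = 0.068). It was one of 9 of 10 tested immunoglobulin constant genes that were higher. Igkc stood at 704 and 530.0 against 35.7 and 28.4 CPM (log2 fold change 4.27, adjusted p = 3.3e-06).

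The difference between the populations was then compared with that of day 1, as the difference of the log2 fold changes, day 14 minus day 1, in the same model. Changes below are on that log2 scale. It changed for 963 genes (8.03%), upward on day 14 for 804 (6.7%) and downward for 159 (1.33%). With scaling by library size only it changed for 1034 genes upward and 86 downward. The 2 CD9+ libraries of day 1 were the least alike pair of the series, with a correlation of log2 CPM across genes of 0.935 against 0.976 to 0.988 in the other groups. Without the second neutrophil library of day 14 the count fell to 552, without the second CD9+ library of day 14 it fell to 605, and without a CD9+ library of day 1 it rose to 1443 or 1435. The downward changes numbered 333 without the first CD9+ library of day 1, 288 without the second, 331 without the first neutrophil library of day 1 and 98 without the second neutrophil library of day 14.

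Genes could change in either population. Mif, a cytokine of many cells, stood on day 1 at 72.9 and 42.4 CPM in CD9+ macrophages and 174 and 188 CPM in neutrophils. On day 14 it stood at 18.8 and 29.7 and 1.56 and 0.923 CPM, so it passed from the neutrophil side to the CD9+ side (change 5.95, standard error 0.42, adjusted p = 1.5e-06). P4ha1, a collagen prolyl hydroxylase, crossed in the same way, from 81.7 and 107 against 345 and 425 CPM to 32.3 and 43.4 against 5.64 and 4.72 CPM (change 4.90, adjusted p = 4.1e-07). In both genes neutrophils of day 14 held the lowest values. Prnp, the prion protein, and Mreg, melanoregulin, changed by 5.55 and 5.51. Neutrophils held 81.9 and 73.7 and 54.7 and 78.0 CPM on day 1 and 3.24 and 2.36 and 3.48 and 3.38 CPM on day 14. Gpc3, glypican 3, stood at 98.5 and 72.8 CPM in neutrophils of day 1 and at 0 in those of day 14. In CD9+ macrophages it stood at 0.141 and 0.421 CPM on day 1 and 0.191 and 0.101 CPM on day 14, so no fold is given between the populations on day 14. Its change passed the test in the full model, and missed it without the first CD9+ library of day 14 (adjusted p = 0.14) or the second (adjusted p = 0.054). Ccl3 and Ccl4, chemokines of inflamed phagocytes, changed by 4.70 and 4.41, with Ccl3 at 142 and 152 CPM in CD9+ macrophages and 1505 and 3027 CPM in neutrophils on day 1 against 109.5 and 102 and 65.9 and 59.3 CPM on day 14.

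For other genes the difference moved upward as well, and the size of a change alone does not say which population moved. Mmp12, macrophage elastase, stood at 3.88 and 4.63 against 1.12 and 0.0875 CPM on day 1 and at 39.2 and 65.5 against 0 and 0.513 CPM on day 14 (change 4.81, adjusted p = 0.019, and 0.075 without the second CD9+ library of day 14, 0.068 without the first neutrophil library of day 14 and 0.65 without the first neutrophil library of day 1). Gpnmb held 47.6 and 58.0 CPM in CD9+ macrophages on day 1, close to its day 14 level, while neutrophils held 9.04 and 8.84 CPM on day 1 (change 4.82, adjusted p = 3.4e-04). Fam129b changed by 4.96. Of the listed genes, Icam1, an adhesion ligand, changed by 4.70, Abca1, the cholesterol exporter, by 4.48 and Pdk1, which turns pyruvate away from mitochondria, by 4.78. Of the sort antigens Cx3cr1 changed by 1.64. Of 24 macrophage identity genes 12 changed upward, and of 25 genes of the neutrophil receptor list 5 changed downward and 1 upward.

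Changes downward were fewer. Thbs1 stood on day 1 at 5313 and 10762 CPM in CD9+ macrophages and 7009 and 8863 CPM in neutrophils, and on day 14 at 877 and 968 and 7597 and 6876 CPM (change -2.99, standard error 0.37, adjusted p = 1.6e-04). The populations overlapped on day 1 and stood apart on day 14, through lower values in CD9+ macrophages. Arg2 changed by -2.78, Tarm1, an activating receptor of myeloid cells, by -2.55 and Gpat3, an enzyme of triglyceride synthesis, by -2.43. The change of Gpat3 missed the test without the first CD9+ library of day 14 (adjusted p = 0.07). Ceacam10 changed by -2.98 and missed it without the second CD9+ library of day 14 (adjusted p = 0.1), the second neutrophil library of day 14 (adjusted p = 0.053) or the first CD9+ library of day 1 (adjusted p = 0.11). Fpr1 and Mmp8 changed by -2.19 and -1.93. The non-coding 1700047M11Rik and Gm43181 changed by -3.04 and -3.01. The change of 1700047M11Rik missed the test without any 1 of 6 of the 8 libraries, and was -0.25 without the first CD9+ library of day 1 (adjusted p = 0.86). It also missed it with DESeq2 (adjusted p = 0.14), under library sizes alone (adjusted p = 0.057) and with edgeR's glmTreat against a fold of 1.5 (adjusted p = 0.085). Gm43181 missed the test without the second CD9+ library of day 14 (adjusted p = 0.057). Jchain, the joining chain of plasma cells, changed by -2.80, with CD9+ macrophages above neutrophils on both days (84.4 and 36.8 against 0.0747 and 1.05 CPM on day 1, 185 and 149 against 10.2 and 10.3 CPM on day 14). The change of Jchain missed the test without any 1 of 6 libraries, which included all 4 of day 14, with adjusted p from 0.051 to 0.17. It also missed it under library sizes alone (adjusted p = 0.055) and with glmTreat, edgeR's test against a fold of 1.5 (adjusted p = 0.081).

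**Figure D5:**
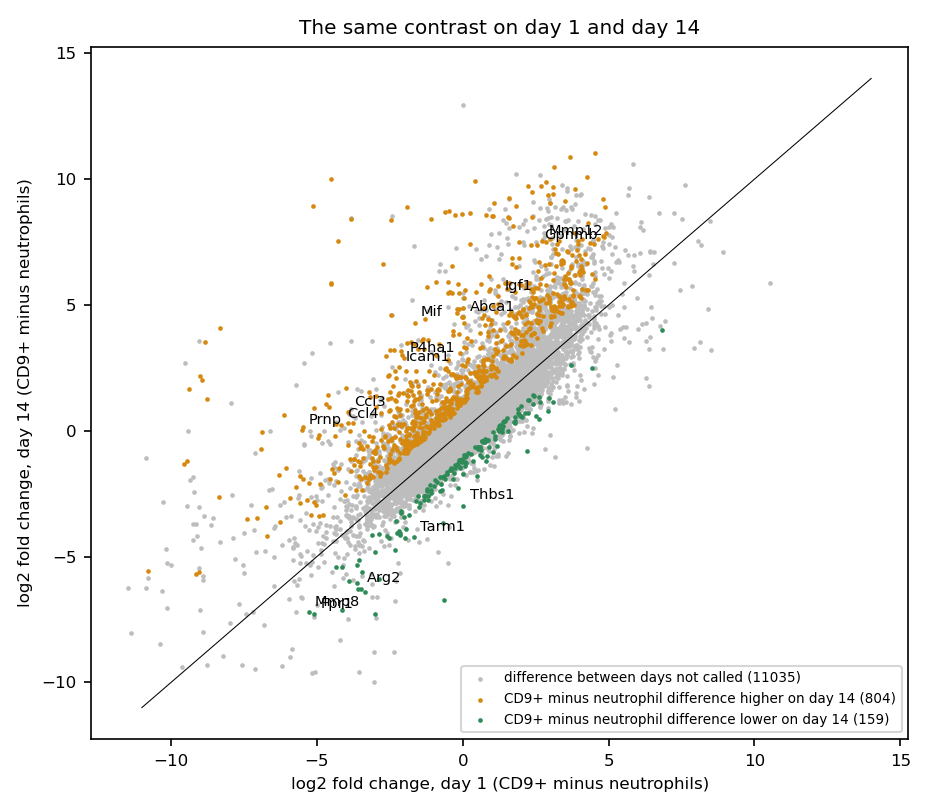
Log2 fold change of CD9+ macrophages minus neutrophils on day 1 (x axis) and on day 14 (y axis) for the 11998 tested genes, with the diagonal of equal values. The 804 genes above it in orange and the 159 below it in green are those whose difference changed between days.

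CD9+ macrophages were last compared with CX3CR1+ macrophages of day 14 for the listed genes, to see which of the values above set CD9+ macrophages apart from the other F4/80+ population. The comparisons share the CD9+ libraries, so their values are given side by side. Over all tested genes 1158 (9.65%) were higher in CD9+ macrophages and 546 (4.55%) were lower. Of the 714 listed genes that were tested, 152 were higher and 60 were lower. Of 27 granule genes 23 were higher than in CX3CR1+ macrophages, although 21 of the 27 were lower than in neutrophils. Camp stood at 3.65 and 6.38 CPM in CX3CR1+ macrophages, 1559.9 and 1087 CPM in CD9+ macrophages and 3350.2 and 3586 CPM in neutrophils, a difference of 8.05 between the macrophages (adjusted p = 2.6e-08). S100a9 stood at 31.3 and 76.4 CPM in CX3CR1+ macrophages (difference 6.27) and Ltf at 26.6 and 61.1 CPM (difference 6.11). For these 3 genes CD9+ macrophages lay between CX3CR1+ macrophages and neutrophils. Mmp8 did not follow, with 151 and 163 CPM in CX3CR1+ macrophages and 48.2 and 21.6 CPM in CD9+ macrophages (difference -2.16, adjusted p = 3.4e-05). Of 24 macrophage identity genes 8 were higher and 3 were lower than in CX3CR1+ macrophages. Of 76 ribosomal protein genes none was called in either direction, and of 30 cell cycle genes 2 were higher. Ctsk, Alox15, Spp1 and Stab1, a scavenger receptor, were higher than in CX3CR1+ macrophages, with differences of 6.44, 7.25, 4.47 and 4.81, and Ccr2 was lower with a difference of -2.30.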

How the data were processed

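The deposited table held read counts for 20200 genes and 16 libraries, 2 for each of 4 populations on 2 days, with 0 columns left unmapped. The authors pooled the cells of several mice for each library, extracted total RNA, prepared stranded SMART-Seq libraries, trimmed reads (Cutadapt), mapped the pairs to mm10 by STAR, counted them on Gencode genes and used edgeR. Every gene in the deposited counts had a total of at least 17. The counts summed to 9233952 to 12721779 in the 4 compared libraries.

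Counts were tested here with edgeR 4.0.16 in R 4.3.3, by a quasi-likelihood fit of 8 group means with TMM scaling, over the 11998 genes with a mean of at least 3 CPM in at least 1 group. The fit was run on simulated counts in which only 200 genes differed between the compared groups and all genes and groups had the same spread. There 197 of 200 changed genes were recovered for this comparison among 11850 genes, with 9 false calls. The simulation held neither the broad difference between these populations, on which the scaling depends, nor unequal spread, so it does not check the fit for these. The contrasts were CD9+ minus neutrophils on day 14, its difference from day 1, and CD9+ minus CX3CR1+ macrophages on day 14. DESeq2 1.42.0, other scalings, filters and thresholds, and omission of each library were alternatives, and a filter on TMM-scaled CPM was chosen after seeing the data. Nothing in the labels says that libraries of a group came from separate experiments, so p-values measure only the spread between these pools.

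Genes, lists and tests were chosen with earlier results of these data known. The text names the sort antigens and markers of the study, the 10 highest and 10 lowest log2 fold changes among called genes that do not overlap and hold at least 50 CPM, members of 48 gene lists, and the 8 highest and 8 lowest changes between days. Some genes are not reported here. The 2 promoter motifs were chosen after values were seen. Promoter sequences and positions are from RefSeq on GRCm38.p6, the build of mm10, and exon lengths are from a Gencode annotation of that build.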

Additional observations from a re-analysis of the deposited data

Results flagged for a closer look

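The difference between CD9+ macrophages and neutrophils changed between day 1 and day 14 by edgeR's interaction test for 963 genes, upward for 804 and downward for 159. Among the upward changes on the log2 scale were those of Mif (5.95), Prnp (5.55), Mreg (5.51), Fam129b (4.96), P4ha1 (4.90), Gpnmb (4.82) and Mmp12 (4.81). The genes of the lists that were named above changed upward as well, with Pdk1 at 4.78, Ccl3 at 4.70, Icam1 at 4.70, Abca1 at 4.48, Ccl4 at 4.41 and Cx3cr1 at 1.64. Gpc3, at 0 in both neutrophil libraries of day 14, had a fitted value of 12.44, which is set by that group at 0 and is no size of the change, and it missed the test without either CD9+ library of day 14 (adjusted p = 0.14 and 0.054). Downward changes were found for 1700047M11Rik (-3.04), Gm43181 (-3.01), Thbs1 (-2.99), Ceacam10 (-2.98), Jchain (-2.80), Arg2 (-2.78), Tarm1 (-2.55), Gpat3 (-2.43), Fpr1 (-2.19) and Mmp8 (-1.93). Groups of 2 libraries are too small for a test of single libraries that stand apart.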

How the results depend on the processing

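With 2 pooled libraries a group and depths of 9233952 to 12721779 counts, 177 of 203 single values of genes on day 14 kept their direction and their side of the threshold under every alternative. Called genes shared by TMM and an alternative had the same sign in every alternative run. On day 14 the called genes numbered 5101 to 8253 under all alternatives, against 5940. The genes called lower numbered 1320 with scaling by library size only and 3790 with no fold threshold. Changes between days fell to 544, with 480 upward and 64 downward, when edgeR's glmTreat tested against a fold of 1.5. The downward ones numbered 86 with scaling by library size only and 398 with no fold threshold. Among the listed genes against CX3CR1+ macrophages, 332 passed with no fold threshold, 130 of them lower.

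Omission of 1 library left 5464 to 5645 called genes on day 14, with 3218 to 3392 higher and 2195 to 2281 lower. It left 442 to 451 of the listed genes, with 286 to 304 higher and 146 to 156 lower, against 456. For changes between days it gave 552 to 1443, with 454 to 1147 upward and 98 to 333 downward. Against CX3CR1+ macrophages it gave 191 to 201 listed genes, with 137 to 148 higher and 49 to 62 lower. A group left with 1 library was assumed to vary like the other groups.

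The balance of the inflammasome list turned with scaling by library size only (median log2 fold change 0.20), that of cholesterol and fatty acid synthesis with scaling by library size only (-0.0103) and upper quartile factors (-0.27), and that of eicosanoid enzymes with a filter on the mean CPM over 16 libraries (4 higher and 5 lower, median -0.59). Ly6c2, which was not called, stood at 0.0378 with scaling by library size only. The cause was not tested.

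The replicate numbers do not mark shared mice in the labels. The study pooled mice for each sort, so populations of the same sort can share a pool. Deviations of libraries with the same number correlated by 0.0362 between CD9+ macrophages and neutrophils on day 14 and 0.0656 on day 1. Between CD9+ and CX3CR1+ macrophages they correlated by 0.122. A low correlation does not exclude shared mice. The main fit did not use the pairing and took the libraries as separate. A fit with a replicate block within day called 5915 genes on day 14, 5885 of them shared, and 989 changes between days, 919 of them shared. Of the listed genes 213 differed from CX3CR1+ macrophages under the block. Of all genes named, the block ended the call of 1700047M11Rik only (adjusted p = 0.056).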
